A study of Mus musculus with 32 samples.

Results

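Primary mouse melanomas differ in how strongly they express the genes that make melanin, and the 10 tumours with the highest pigment score were compared here with the 10 tumours with the lowest, out of 32 in all. The score of a tumour was the mean of log2(TPM + 1) over Tyr, Tyrp1, Pmel and Mlana, where TPM is an expression level scaled by transcript length and by library size. The other 12 tumours had scores in between and did not enter the comparison. All 32 tumours were primary melanomas of mice in which NRAS with the Q61K change is expressed under the Tyr promoter, which is active in melanocytes, and which carry a deleted Cdkn2a allele (-/+) and floxed Cdh1 (the gene of E-cadherin). The 16 Ecad tumours are labelled Tyr::NrasQ61K;Cdkn2a-/+;°/°;Cdh1F/F and are those in which Cdh1 was not deleted by design. The 16 ΔEcad tumours are labelled Tyr::NrasQ61K;Cdkn2a-/+;Tyr::NRAS/°;Cdh1F/F, although the study's methods give a Cre recombinase under the Tyr promoter (Tyr::CreA) as the third element, which deletes Cdh1 in melanocytes. Each genotype held 8 males and 8 females, and no age or treatment is given for these tumours. The 10 high-score tumours were 2 Ecad male, 4 Ecad female, 2 ΔEcad male and 2 ΔEcad female tumours. The 10 low-score tumours were 1 Ecad male, 2 Ecad female, 4 ΔEcad male and 3 ΔEcad female tumours. ΔEcad tumours made up 4 of the high and 7 of the low tumours (Fisher's exact test, two-sided, p = 0.370, adjusted p = 0.740 over 2 labels), and females 6 of the high and 5 of the low tumours (p = 1).

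Melanin is made in melanosomes, which are organelles related to lysosomes. Tyrosinase (Tyr) carries out the rate-limiting oxidation of tyrosine, and Dct and Tyrp1 act on later intermediates. Pmel forms the fibrils on which melanin is laid down, and Mlana is a melanosome protein that acts with Pmel. Ion channels and transporters set the pH and calcium of the organelle. The transcription factor MITF binds E-box sequences such as CATGTG in promoters of many of these genes, and SOX10 and PAX3 act upstream of it.

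Promoter stretches of 5 genes of the pathway that hold CATGTG are shown because 2 of them (Tyr and Tyrp1) set the score, 2 (Slc24a5 and Trpm1) differed between high- and low-score tumours, and 1 (Dct) was not called. They are the 250 bases before the RefSeq start site in GRCm38.p6, read 5′ to 3′ on the gene's strand. The positions are chr7:87493513-87493762 on the minus strand for Tyr, chr4:80833963-80834212 on the plus strand for Tyrp1, chr14:118052247-118052496 on the minus strand for Dct, chr2:125067877-125068126 on the plus strand for Slc24a5 and chr7:64153585-64153834 on the plus strand for Trpm1. Capitals mark CATGTG or its reverse complement CACATG.
Tyr: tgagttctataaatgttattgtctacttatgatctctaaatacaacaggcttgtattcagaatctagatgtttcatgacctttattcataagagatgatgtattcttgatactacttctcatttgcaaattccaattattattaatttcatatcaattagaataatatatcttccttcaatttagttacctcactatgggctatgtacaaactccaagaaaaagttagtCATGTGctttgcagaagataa
Tyrp1: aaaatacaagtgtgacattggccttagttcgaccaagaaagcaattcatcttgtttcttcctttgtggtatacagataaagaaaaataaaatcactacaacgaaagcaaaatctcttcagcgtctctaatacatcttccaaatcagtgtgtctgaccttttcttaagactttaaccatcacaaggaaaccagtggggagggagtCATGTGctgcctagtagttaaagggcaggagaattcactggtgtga
Dct: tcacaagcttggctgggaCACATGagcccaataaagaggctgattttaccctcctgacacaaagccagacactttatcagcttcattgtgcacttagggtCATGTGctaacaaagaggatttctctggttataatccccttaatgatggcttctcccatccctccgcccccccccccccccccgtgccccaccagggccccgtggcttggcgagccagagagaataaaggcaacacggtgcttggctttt
Slc24a5: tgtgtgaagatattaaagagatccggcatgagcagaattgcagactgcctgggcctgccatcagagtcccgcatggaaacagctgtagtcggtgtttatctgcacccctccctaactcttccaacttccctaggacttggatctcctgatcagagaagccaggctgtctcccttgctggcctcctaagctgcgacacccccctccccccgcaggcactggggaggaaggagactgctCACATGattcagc
Trpm1: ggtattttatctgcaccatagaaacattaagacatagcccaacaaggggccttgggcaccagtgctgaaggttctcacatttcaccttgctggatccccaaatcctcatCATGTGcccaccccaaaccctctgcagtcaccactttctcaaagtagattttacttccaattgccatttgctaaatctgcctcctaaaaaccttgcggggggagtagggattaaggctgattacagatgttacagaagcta
The first base of the match lay 21 bases before the start site in Tyr, 46 in Tyrp1, 13 in Slc24a5 and 141 in Trpm1, and Dct had matches at 232 and 150. Over the 300 bases around each start site (250 before and 50 after), 5 of the 8 listed genes of melanin synthesis and melanosome channels with a promoter in the table held the letters on either strand (62.5%), as did 1 of 19 genes of melanosome formation and transport (5.26%). The share was 10.7% over 11353 tested genes with a promoter, and 14.2% over all 32851 promoters. Among genes called between the score groups (defined below), 4 of 53 that were higher with the score held it (7.55%) and 3 of 29 that were lower (10.3%). A match is a description of the letters, not a binding site.

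Scores in the high group ran from 11.54 to 12.40 and in the low group from 1.72 to 10.22, with medians of 11.87 and 9.91. The values beside the limits were close, at 11.54 just inside and 11.43 just outside the high group, and at 10.22 just inside and 10.32 just outside the low group. The low group was uneven, with 7 tumours between 9.81 and 10.22 and 3 at 8.47 (ΔEcad female 2), 6.82 (ΔEcad female 8) and 1.72 (ΔEcad male 7). Total counts per tumour were 24036333 to 40421712 in the high and 28558005 to 63923086 in the low group, with means of 33680825 and 41370660 (permutation test, two-sided, p = 0.0922).

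A set of 3 libraries stood apart from their labels or from the rest. The library labelled ΔEcad male 2, in the high group, held 6.41 TPM of Xist and 0 TPM of Ddx3y, whereas the 15 other libraries labelled male held at most 0.20 TPM of Xist and at least 10.8 TPM of Ddx3y. The 16 libraries labelled female held 8.55 to 253.16 TPM of Xist and at most 0.37 TPM of Ddx3y, so its Xist lay between the labelled sexes. ΔEcad male 7, the lowest score, held 0.49 TPM of Sox10 and 4.98 TPM of Dct, the lowest values of all 32 tumours for both genes. ΔEcad female 3, in the low group, held 0 haemoglobin counts, against 642 to 98702 in the 31 other tumours. It also had the lowest summed markers of endothelial cells (0.78 TPM) and macrophages (11.7 TPM) of all 32 tumours. Its summed markers of pericytes and smooth muscle were the highest (4230 TPM). Cdh1, the deleted gene, was at 2.16 to 281.9 TPM (median 82.5) in the 16 Ecad tumours and at 0.170 to 143.3 TPM (median 7.36) in the 16 ΔEcad tumours, so that the RNA level did not separate every library by its genotype.

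The groups were chosen by the measured TPM of the 4 score genes, so their values are a description without a test. Tyrp1 and Pmel moved most. Tyrp1 was at 500.4, 4436 and 13192 TPM (lowest, median and highest) in the high group and at 1.07, 272 and 2513 TPM in the low group. Pmel was at 1018, 6945 and 16560.5 TPM in the high group and at 4.98, 345 and 2357 TPM in the low group. In 7 of the 10 low tumours Tyrp1 lay below every high tumour, and the same count held for Pmel. Tyr was at 567, 971 and 1898 TPM in the high and at 0.11, 459 and 1501 TPM in the low group, with 6 low tumours below every high tumour. Mlana was at 2234, 9119 and 16686 TPM in the high and at 7.47, 4528 and 12290 TPM in the low group, with 3 low tumours below every high one. The fitted difference of high minus low on the log2 scale was 3.43 ± 0.84 (SE) for Tyrp1, 3.09 ± 0.82 for Pmel, 0.97 ± 0.69 for Mlana and 0.90 ± 0.68 for Tyr.

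Dct and Sox10, lineage genes outside the score, were detected in every low tumour, although both were near 0 in ΔEcad male 7. Dct, the tautomerase of the melanin pathway, was at 6112, 11933 and 50656 TPM in the high and at 4.98, 14717 and 26329 TPM in the low group, with the low median above the high one. Dct lay below every high tumour in 3 low tumours, ΔEcad male 7 (4.98 TPM), ΔEcad female 2 (1466 TPM) and ΔEcad female 3 (1917 TPM). Sox10, a lineage transcription factor, was at 473, 984 and 1424 TPM in the high and at 0.49, 556 and 1134 TPM in the low group, with 4 low tumours below every high one. ΔEcad female 8, next lowest in score, held 15836 TPM of Dct and 982 TPM of Sox10 beside 12.4 TPM of Tyrp1 and 40.9 TPM of Pmel. In bulk RNA, fewer cells of a type and less RNA per cell cannot be told apart. The score genes were not low to the same degree in every low tumour. Ecad female 3 held 1501 TPM of Tyr and 12290 TPM of Mlana beside 319.6 TPM of Tyrp1 and 140.9 TPM of Pmel. In contrast, ΔEcad female 2 was also low in Tyr, at 81.0 TPM, and ΔEcad female 8 in Mlana, at 564 TPM.

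**Figure D1:**
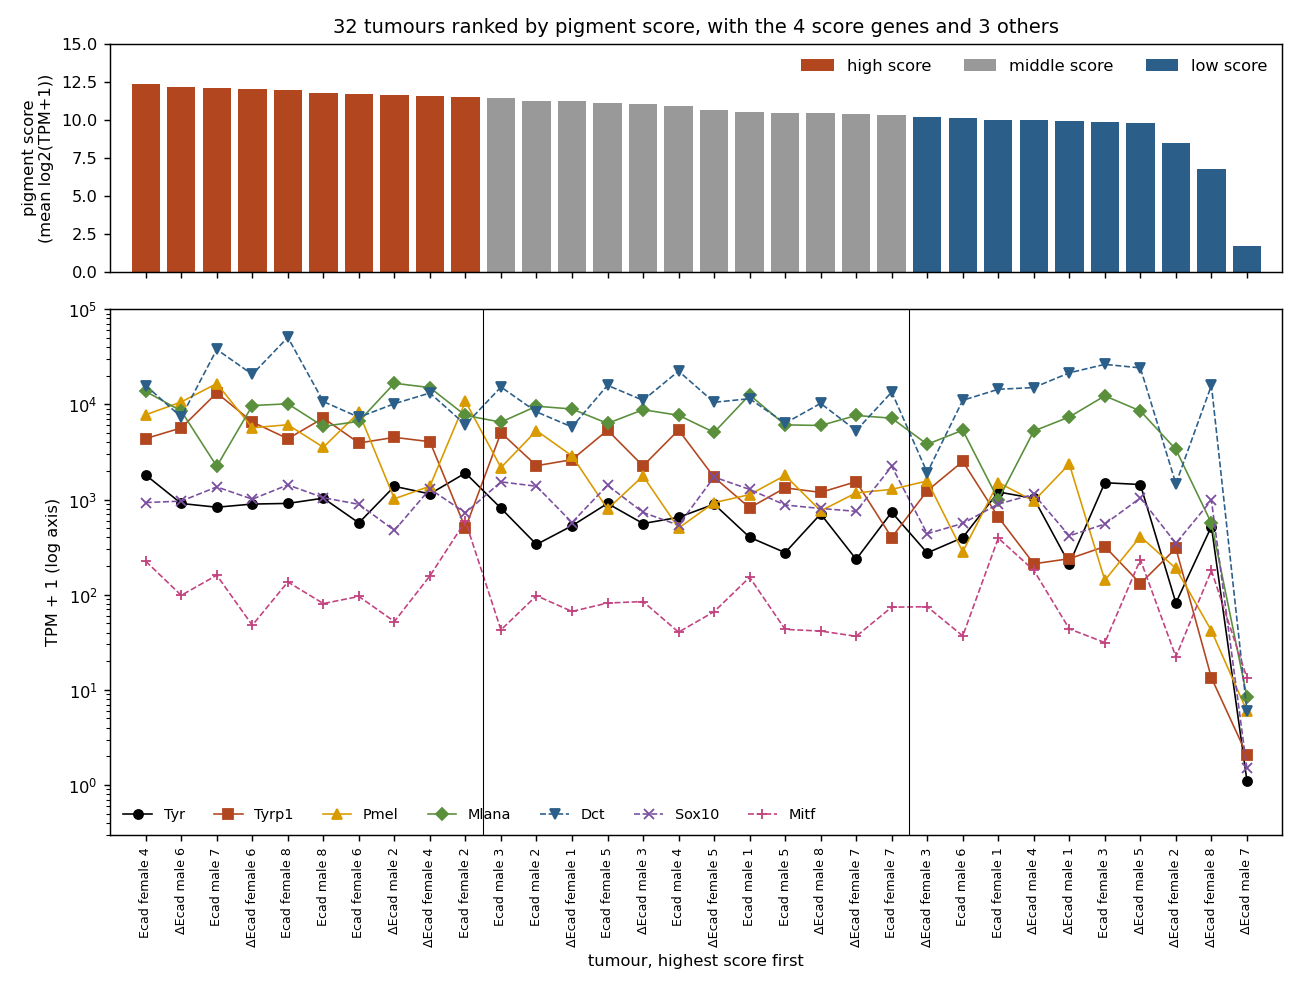
The upper panel shows the pigment score (mean log2(TPM + 1) of Tyr, Tyrp1, Pmel and Mlana, bars from 0) of the 32 tumours, and the lower panel shows TPM + 1 on a log axis for these 4 genes (solid lines) and for Dct, Sox10 and Mitf (dashed lines), highest score first. Tyrp1 and Pmel decline across the ranking, Dct has a higher median in the low than in the high group (14717 and 11933 TPM) with 3 low tumours below every high one, and all 7 genes are low in ΔEcad male 7.

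To find what else went with the score, all genes with enough counts were compared between the 10 high and 10 low tumours with edgeR's quasi-likelihood test. A gene was called when its Benjamini-Hochberg adjusted p was under 0.05 and its log2 fold change was over 1 in either direction. Outside the score genes, 104 of 15556 genes were called (0.669%), 66 higher (0.424%) and 38 lower (0.244%) in high-score tumours. At an unadjusted p under 0.05, 1211 genes were higher (7.78%) and 2321 lower (14.9%), and the median log2 difference of all genes was -0.17. The groups were formed on the same libraries, so a gene whose level goes along with the 4 score genes was bound to differ. The split of calls depended on the tool, with 321 higher (2.06%) and 838 lower (5.39%) by DESeq2 and 417 higher (2.68%) and 477 lower (3.07%) by limma voom. Leaving out the 3 libraries that stood apart gave 242 calls, 91 of them among the 104, and leaving out the 3 lowest scores gave 10, all of them among the 104.

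Among 10 genes of melanin synthesis and melanosome channels outside the score, 3 were higher in high-score tumours and none lower, beside 0.424% and 0.244% of all genes. Slc24a5, a sodium-calcium exchanger needed for pigmentation, was at 350, 749 and 1296 TPM in the high and at 0.20, 84.9 and 285 TPM in the low group. Gpr143, a melanosomal G-protein-coupled receptor, was at 43.0, 77.7 and 299.8 TPM in the high and at 0.04, 16.02 and 24.5 TPM in the low group. For both genes every high tumour exceeded every low tumour. The log2 differences were 3.03 ± 0.69 (edgeR adjusted p = 0.0442) for Slc24a5 and 2.75 ± 0.61 (adjusted p = 0.0413) for Gpr143. Trpm1, a cation channel gene of melanocytes, was at 63.4, 174 and 363 TPM in the high and at 0.15, 5.35 and 84.6 TPM in the low group. Only ΔEcad female 3 among the low tumours reached the range of the high ones, and the log2 difference was 3.81 ± 0.89 (adjusted p = 0.0476). Of the 20 fits that leave out 1 tumour, the call held in 7 for Slc24a5, in 7 for Gpr143 and in 6 for Trpm1, and with the labelled group as a covariate 1 of the 10 genes was called, and none with the keratinocyte markers as a covariate.

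The other 7 genes of the list did not pass. Oca2, a melanosomal ion transporter, was at 0.03, 161 and 275 TPM in the high and at 0, 12.6 and 49.4 TPM in the low group. Its low values included a high-score tumour, Ecad female 2, at 0.03 TPM, and its log2 difference was 3.36 ± 1.03 (edgeR adjusted p = 0.0828). Slc45a2, another melanosomal transporter, differed by 0.93 ± 0.67 (adjusted p = 0.412), and Dct by 0.45 ± 0.75 (adjusted p = 0.744). The remaining 4 genes had adjusted p-values from 0.329 to 0.992. Over the whole list of 10 the median log2 difference was 0.96, beside -0.17 over all genes tested. The 3 calls also stood without the 3 libraries that stood apart, and 2 stood without the 3 lowest scores.

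Genes of melanosome formation and transport gave no call by edgeR among 22 members. Of the 22, DESeq2 called 2 higher and limma voom 2, beside 2.06% and 2.68% of all genes. Without the 3 libraries that stood apart 1 was called higher. At an unadjusted p under 0.05, 7 of the 22 were higher and 0 lower, beside 7.78% and 14.9% of all genes. Their median log2 difference was 0.38. Cd63, a tetraspanin of late endosomes that takes part in sorting Pmel, was at 1543, 1845 and 3750 TPM in the high and at 520, 728 and 1483 TPM in the low group. The ranges did not overlap, but the log2 difference of 1.33 ± 0.35 had an edgeR adjusted p of 0.0605. Mlph, which links melanosomes to myosin motors, was at 127, 474 and 611 TPM in the high and at 3.13, 96.3 and 294 TPM in the low group, with a log2 difference of 1.94 ± 0.48 (adjusted p = 0.0556). Bloc1s3 and Hps6, subunits of complexes that deliver cargo to melanosomes, differed by 0.72 ± 0.19 (adjusted p = 0.0628) and 0.65 ± 0.21 (adjusted p = 0.0933).

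By edgeR no regulator of the lineage was called among 11 transcription factors and 6 receptors. At an unadjusted p under 0.05, 5 were higher and 0 lower, beside 7.78% and 14.9% of all genes. Of these 17 genes, 4 were called higher by DESeq2 and 2 by limma voom, beside 2.06% and 2.68% of all genes. With all 32 tumours in the fit 4 were called higher, beside 298 of 17212 genes. Mitf was at 46.7, 116 and 590 TPM in the high and at 12.4, 58.2 and 392 TPM in the low group, and these ranges overlapped over most of their width. Its log2 difference was 0.64 ± 0.52 (edgeR adjusted p = 0.478). Sox10 differed by 0.87 ± 0.55 (adjusted p = 0.346). Irf4, a factor that takes part in Tyr transcription, was at 1.20, 10.6 and 17.5 TPM in the high and at 1.25, 3.33 and 7.28 TPM in the low group, with a log2 difference of 1.58 ± 0.44 (adjusted p = 0.0665). Tfeb, a regulator of lysosome genes related to MITF, differed by 1.06 ± 0.32 (adjusted p = 0.0791). Kit, the receptor of stem cell factor, was at 2.09, 82.4 and 265 TPM in the high and at 0.86, 11.98 and 72.9 TPM in the low group, with a log2 difference of 2.60 ± 0.65 (adjusted p = 0.0558). Mc1r, the melanocortin receptor that favours dark pigment, was at 87.8, 369 and 938 TPM in the high and at 0.04, 84.0 and 202 TPM in the low group, with a log2 difference of 2.54 ± 0.82 (adjusted p = 0.0928).

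**Figure D2:**
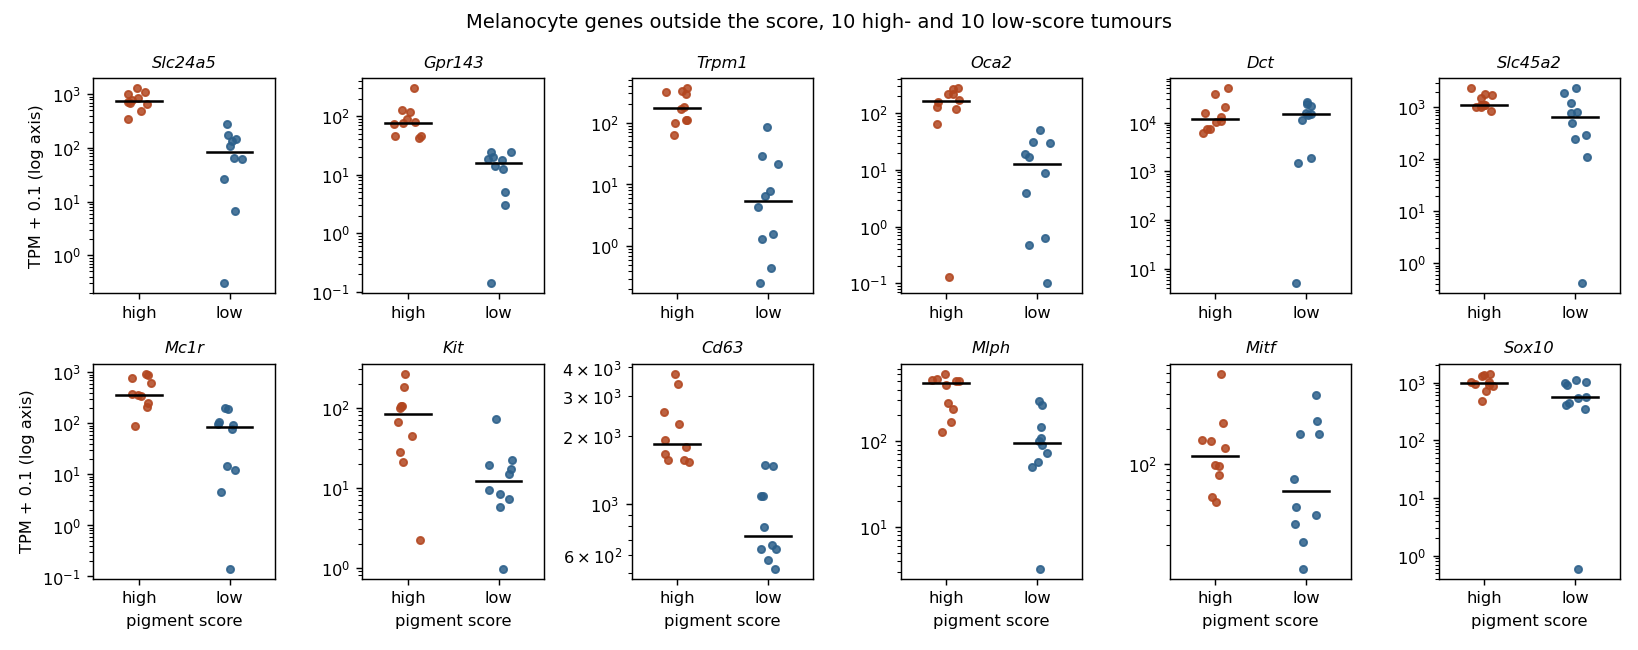
Each panel shows TPM + 0.1 on a log axis for 1 melanocyte gene outside the score in the 10 high-score (brown) and 10 low-score (blue) tumours, with a bar at the median. The groups are apart for Slc24a5, Gpr143 and Cd63, and they overlap for Dct, Slc45a2, Mitf and Sox10.

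The differences with the smallest p lay outside the pigment lists, although the called pigment genes had larger log2 differences than Scpep1. Scpep1, a lysosomal serine carboxypeptidase on chromosome 11, had the smallest p of all genes. It was at 351, 794 and 1364 TPM in the high and at 154, 237 and 432 TPM in the low group, and 9 of 10 low tumours lay below every high one. The log2 difference was 1.89 ± 0.25 (edgeR adjusted p = 0.00289). Scpep1 was called in all 20 fits that leave out 1 tumour and in 17 of 18 other fits. Slc37a2, a sugar-phosphate exchanger of the endoplasmic reticulum, was at 94.1, 179 and 395 TPM in the high and at 3.23, 34.1 and 44.6 TPM in the low group, with no overlap. Its log2 difference was 2.88 ± 0.45 (adjusted p = 0.00835), and it was called in as many fits as Scpep1.

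Several genes called higher work in lysosomes, endosomes or the secretory route, which is a grouping made after their values were seen. Genes of these compartments were also called lower, among them Arrdc3 and Dirc2 (log2 differences -1.35 and -1.71). Sqstm1, an autophagy receptor and the only called member among 16 listed lysosome genes (0.424% of all genes were called higher), was at 1099.0, 1397 and 1754 TPM in the high and at 436, 756 and 1098.9 TPM in the low group. Its log2 difference was 1.10 ± 0.23 (edgeR adjusted p = 0.0311). Mgat4b, a Golgi enzyme that branches N-glycans, was at 368, 672 and 922 TPM in the high and at 156, 273 and 364 TPM in the low group (log2 difference 1.42 ± 0.23, adjusted p = 0.00835). Neither gene had overlapping ranges, although the highest low tumour came within 0.05 TPM of the lowest high tumour for Sqstm1. Atp6v0a1, a subunit of the proton pump that acidifies lysosomes and melanosomes, differed by 1.77 ± 0.32 (adjusted p = 0.0151). Naglu and Glb1, lysosomal hydrolases outside the listed 16, differed by 1.36 ± 0.28 (adjusted p = 0.0311) and 1.15 ± 0.27 (adjusted p = 0.0478). Litaf, a protein of late endosomes, differed by 1.69 ± 0.29 (adjusted p = 0.0113), and Alg3, a mannosyltransferase of the endoplasmic reticulum, by 1.12 ± 0.20 (adjusted p = 0.0143). The listed lysosome genes as a whole had a median log2 difference of 0.36, with 5 higher and 0 lower at an unadjusted p under 0.05, beside 7.78% and 14.9% of all genes. Of the 20 fits that leave out 1 tumour, the call held in 13 for Sqstm1, 13 for Naglu and 6 for Glb1, and in 20 for Mgat4b, Atp6v0a1, Litaf and Alg3.

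Ranges that do not overlap were rare. Over all genes tested outside the score, 6 (0.0386%) were higher in every high tumour than in every low tumour, namely Slc37a2, Mgat4b, Slc24a5, Gpr143, Sqstm1 and Cd63, and 1 (0.00643%) was lower, Zfp90. All but Cd63 were called.

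Among the other leading genes, Slc7a8, a carrier of neutral amino acids, was at 62.5, 361 and 1008 TPM in the high and at 3.64, 12.4 and 139.7 TPM in the low group. Only ΔEcad female 3 among the low tumours reached the high range, and the log2 difference was 4.08 ± 0.73 (edgeR adjusted p = 0.0143). Tcf7, a transcription factor of the Wnt pathway, was at 21.6, 97.0 and 271 TPM in the high and at 7.51, 22.6 and 50.2 TPM in the low group (log2 difference 2.43 ± 0.42, adjusted p = 0.0128). Lin7a, a scaffold protein of cell polarity, and Serpini1, a secreted protease inhibitor, had log2 differences of 6.11 ± 1.06 (adjusted p = 0.0128) and 4.46 ± 0.80 (adjusted p = 0.0143). Both were near 0 in every low tumour, at most 0.53 TPM for Lin7a and 0.63 TPM for Serpini1. In the high group Lin7a was at 0.19, 3.385 and 47.77 TPM and Serpini1 at 0.1, 5.195 and 26.62 TPM. The lowest high tumour thus lay inside the low range for both genes. The high group was uneven, with 46.4% of the summed TPM of Lin7a from ΔEcad female 4 and 41.4% of that of Serpini1 from ΔEcad male 6. Cd151, Abhd4 and Commd10 rose by log2 differences of 1.06 to 1.30, and the long noncoding RNA E230013L22Rik by 3.05 ± 0.54.

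Genes lower in high-score tumours were led by Ank3, which encodes the membrane adaptor ankyrin-G. Ank3 was at 0.01, 0.20 and 0.79 TPM in the high and at 0.08, 6.86 and 13.6 TPM in the low group. In 9 of 10 low tumours it exceeded every high tumour, and the exception was ΔEcad male 1 at 0.08 TPM. The log2 difference was -4.44 ± 0.66 (edgeR adjusted p = 0.00813). Nrp2, a co-receptor of semaphorins and VEGF, was at 1.05, 3.19 and 7.83 TPM in the high and at 1.41, 35.5 and 150.9 TPM in the low group (log2 difference -3.62 ± 0.58, adjusted p = 0.00835). The exception among low tumours was again ΔEcad male 1, at 1.41 TPM. Arrdc3, an arrestin-like protein that sorts receptors, was at 7.77, 12.4 and 19.2 TPM in the high and at 5.45, 42.9 and 60.1 TPM in the low group, and ΔEcad male 1, at 5.45 TPM, was once more the low tumour that did not exceed the high ones. Without ΔEcad male 1, 498 genes were called in place of 104.

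The other leading genes of this direction had smaller differences. Zfp90, a zinc finger protein, was at 2.31, 3.13 and 5.38 TPM in the high and at 5.56, 8.48 and 13.3 TPM in the low group, with no overlap (log2 difference -1.12 ± 0.18, edgeR adjusted p = 0.00835). Pdcd4, an inhibitor of translation, differed by -1.75 ± 0.28 (adjusted p = 0.00835). Ncoa3, a coactivator of nuclear receptors, differed by -1.47 ± 0.29 (adjusted p = 0.0269), and Upf3b, a factor of nonsense-mediated decay, by -1.55 ± 0.31 (adjusted p = 0.0311). Cd1d1, which presents lipids to natural killer T cells, was at 2.08, 3.47 and 7.36 TPM in the high and at 5.53, 10.7 and 17.4 TPM in the low group (log2 difference -1.51 ± 0.30, adjusted p = 0.0297). Clec2d, a ligand of an inhibitory receptor of natural killer cells, differed by -2.70 ± 0.56 (adjusted p = 0.0311). Tcf7l2, a transcription factor of the Wnt pathway like Tcf7, had a log2 difference of -1.02 ± 0.21 (adjusted p = 0.0316), and its call held in 9 of 20 fits that leave out 1 tumour and in 6 of 18 other fits. In the fits that leave out 1 tumour the call held in 12 of 20 for Clec2d, 14 for Cd1d1, 15 for Upf3b and 16 for Ncoa3. The remaining genes of the 15 (4833420G17Rik, Dirc2, Rsph10b, 4933439C10Rik and 2310001H17Rik) had log2 differences of -1.97 to -1.04.

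**Figure D3:**
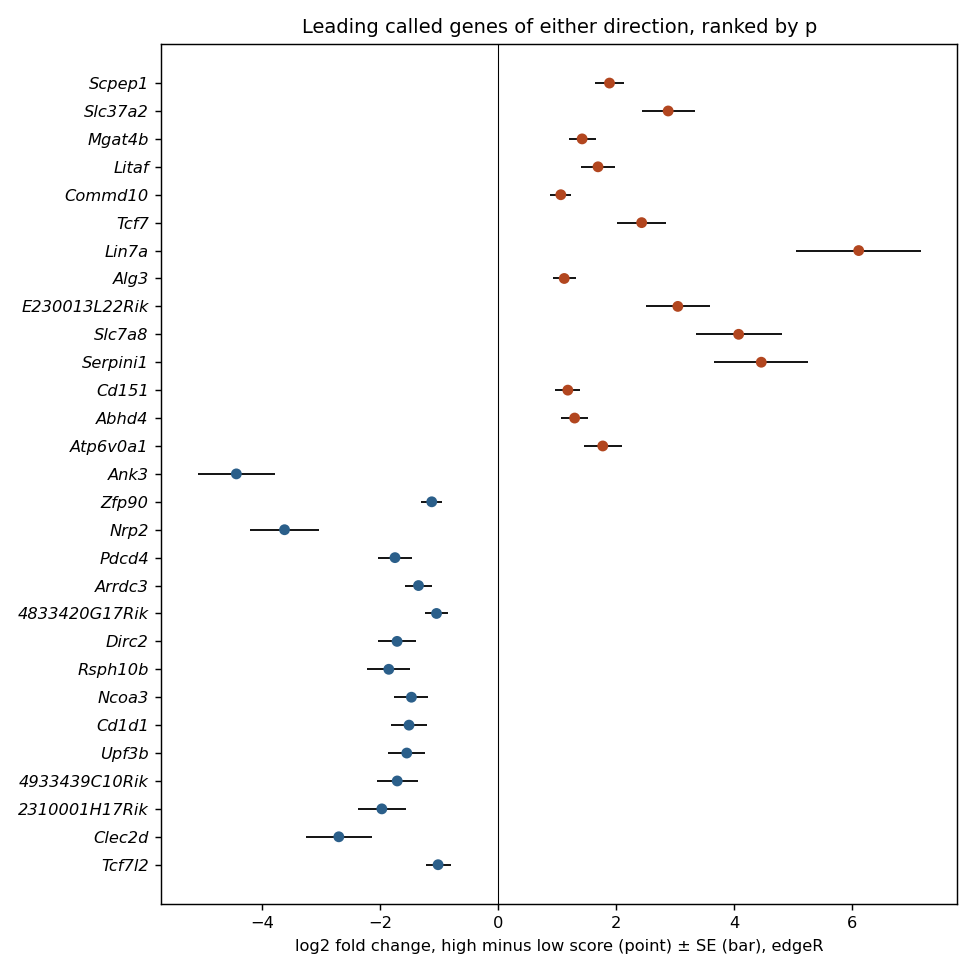
Points give the log2 fold change of high minus low score and bars its SE for the leading called genes of either direction, ranked by p (edgeR, 10 against 10 tumours). Among the genes plotted Lin7a has the largest rise, at 6.11, and Ank3 the largest fall, at -4.44, and most others lie between 1 and 3 in size.

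**Figure D4:**
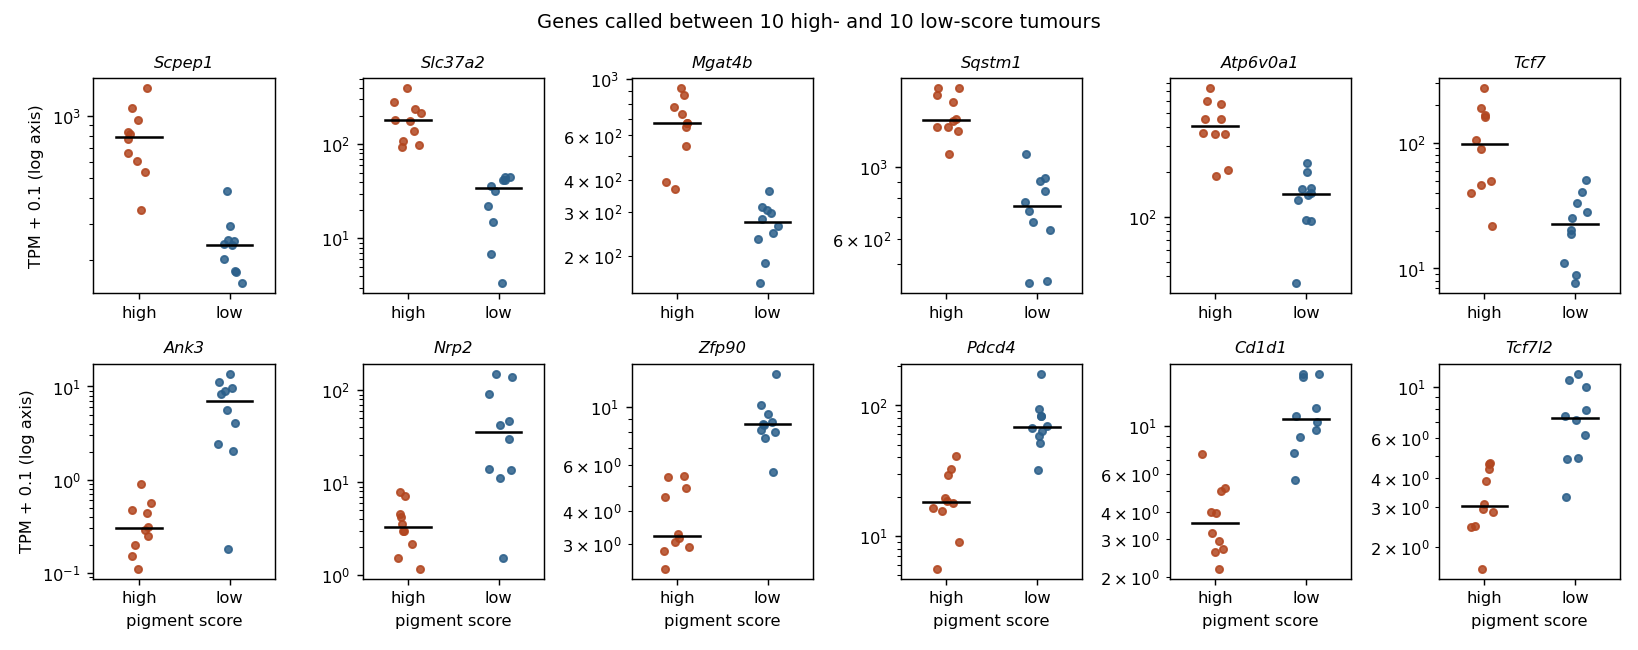
Each panel shows TPM + 0.1 on a log axis for 1 called gene in the 10 high-score (brown) and 10 low-score (blue) tumours, with a bar at the median. Slc37a2, Mgat4b, Sqstm1 and Zfp90 do not overlap between the groups, and 1 low tumour (ΔEcad male 1) lies among the high ones for Ank3 and Nrp2.

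The 12 tumours in between were not used in the fit. Their median TPM lay between those of the high and low groups for 57 of the 66 genes called higher (86.4%) and for 35 of the 38 called lower (92.1%), against 32.8% and 39.1% of all tested genes with a median difference in that direction. Genes with well-separated medians leave more room in between, so these shares are a description. For Slc24a5 the median of the 12 was 217 TPM, for Gpr143 34.5 TPM, for Scpep1 309 TPM, for Slc37a2 39.8 TPM and for Ank3 1.19 TPM, each inside the interval of the other medians. For Lin7a it was 0.125 TPM, equal to the low median.

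Other programmes known in melanoma gave few calls by edgeR, where 0.424% of all genes were called higher and 0.244% lower, and 7.78% and 14.9% had an unadjusted p under 0.05. DESeq2 called 2.06% of all genes higher and 5.39% lower, and limma voom 2.68% and 3.07%. Of 10 MAPK feedback genes 1 was called, Etv5, a transcription factor induced by ERK signalling, at 133, 385 and 643 TPM in the high and at 34.0, 132 and 312 TPM in the low group (log2 difference 1.55 ± 0.34, edgeR adjusted p = 0.0396). Its call held in 10 of 20 fits that leave out 1 tumour. In this list 3 genes were higher and 1 lower at an unadjusted p under 0.05, and DESeq2 called 2 higher and 1 lower. The lower gene by edgeR was Egr1, with a log2 difference of -2.14 ± 0.65 (edgeR adjusted p = 0.081). Of 10 Wnt feedback genes 1 was called (Tcf7), and the list was split at an unadjusted p under 0.05, with 5 higher and 3 lower. By edgeR none was called among the lists of the invasive state (6 genes), the neural crest-like state (6), dedifferentiation and EMT (14), YAP targets (7), MITF targets outside pigment (11 tested), proliferation (13), oxidative phosphorylation (15), interferon response (10), ATF4 stress (9), the starved-like state (4 tested) and collagens and matrix (9). Of these 104 list members, with Ccn1 in both the invasive state and YAP lists, 6 were higher and 7 lower at an unadjusted p under 0.05. DESeq2 called 1 higher and 1 lower, and limma voom called 4 higher. Their median log2 differences ran from -0.89 for collagens and matrix to 0.53 for the starved-like state. The sign of the median turned in at least 1 of 7 other fits for 5 of the 11 lists. Without the 3 libraries that stood apart it was 0.62 for collagens and matrix, 0.41 for the invasive state (-0.46 with them), 0.57 for YAP targets (-0.22), -0.02 for MITF targets outside pigment (0.16) and -0.14 for oxidative phosphorylation (0.07). In glycolysis and hypoxia, 0 of 12 were called by edgeR (2 higher by DESeq2, 3 by limma voom and 2 without the 3 libraries that stood apart) and 5 were higher at an unadjusted p under 0.05, with Eno1 at 1.17 ± 0.28 (adjusted p = 0.0520). In antigen presentation, 0 of 9 were called by edgeR or DESeq2 and 1 was called lower by limma voom, 2 were lower at an unadjusted p under 0.05, and all 9 differences were negative (median -1.03). Cdh1 differed by -1.52 ± 0.96 (adjusted p = 0.347), and Grpr did not pass the filter on low counts.

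Summed markers of several other cell types had different medians in the high and low groups. By edgeR none of the 80 marker genes tested was called. At an unadjusted p under 0.05, 5 of the 80 were higher and 17 lower, beside 7.78% and 14.9% of all genes. DESeq2 called 2 of the 80 higher and 7 lower, beside 2.06% and 5.39% of all genes. By limma voom 2 were higher and 1 lower, beside 2.68% and 3.07%. Summed keratinocyte markers were at 0.21, 1.96 and 7283 TPM in the high and at 3.82, 1560 and 42617 TPM in the low group, and their 8 genes were all lower in high-score tumours with a median log2 difference of -3.07, none of them called. Summed markers of T and NK cells were at 1.12, 11.8 and 25.2 TPM in the high and at 0.93, 27.5 and 123.9 TPM in the low group (0 of 8 called, median -1.60), and those of macrophages at 197, 613 and 1541 TPM against 11.7, 1375 and 4668 TPM (0 of 8 called, median -1.26). Fibroblast markers were at 83.6, 796 and 4208 TPM in the high and at 68.4, 1362 and 9191 TPM in the low group (0 of 8 called, median -1.05). The fibroblast median was 0.04 without the 3 libraries that stood apart, of which ΔEcad female 3 held 9191 and ΔEcad male 7 5454 TPM, and -0.45 without the 3 lowest scores. Red blood cell genes went the other way, at 175, 2025 and 10741 TPM in the high and at 0, 455 and 3189 TPM in the low group (0 of 4 called, median 2.02). The other 9 marker lists had no gene called by edgeR, with medians from -4.02 (hair follicle, 3 tested genes) to 0.83 (neutrophil). The sign of the median turned in at least 1 of 7 other fits for 6 of the 14 lists (B and plasma cell, adipocyte, fibroblast, neutrophil, secretory epithelium and skeletal muscle). The ranges of the summed markers overlapped in all 14 lists. In the 12 tumours in between, the medians of several lists lay above those of both groups. This held for keratinocyte (5344 TPM), macrophage (2248 TPM), T and NK cell (34.7 TPM) and red blood cell markers (2103 TPM). For fibroblast markers the median of the 12 was 1174 TPM, inside the interval of the other medians. With the summed keratinocyte markers as a covariate 23 genes were called, 17 of them among the 104, and with the fibroblast markers 215 were called, 97 of them among the 104. The part of these cells in the results beyond that was not tested.

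**Figure D5:**
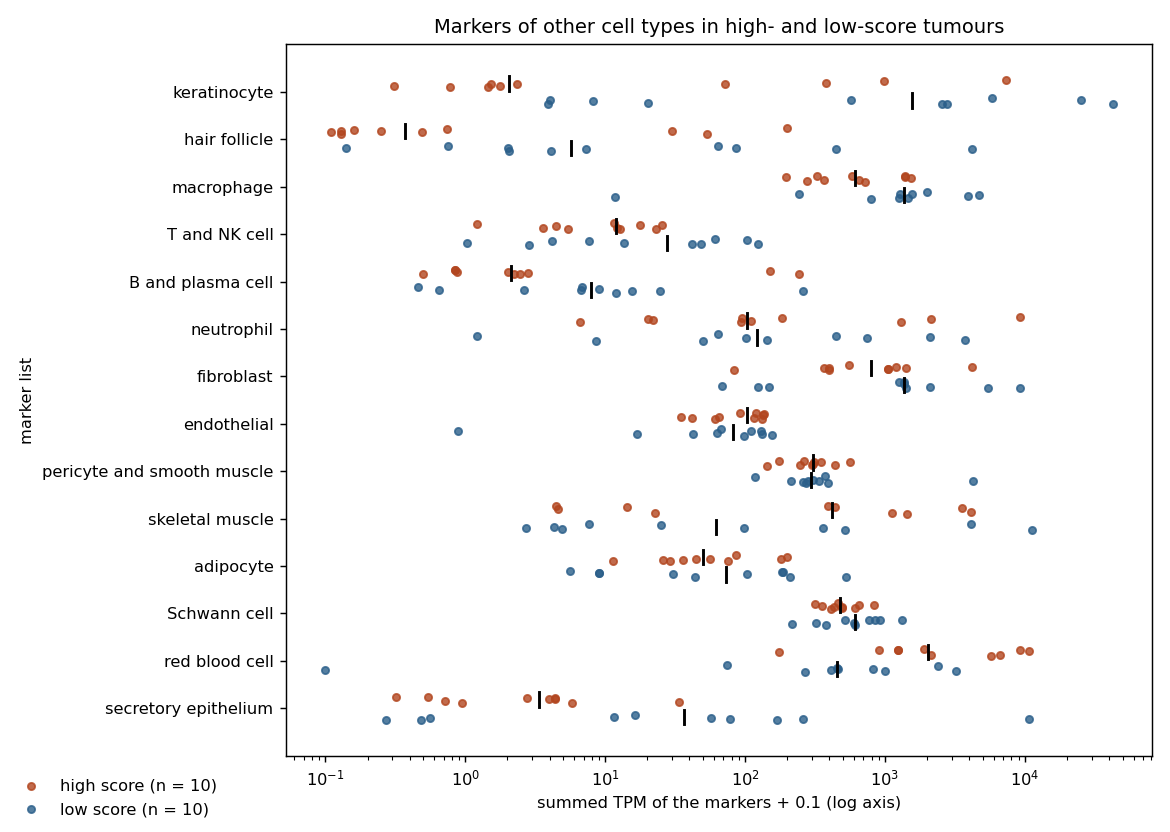
Points give the summed TPM + 0.1 (log axis) of 14 marker lists of other cell types in the 10 high-score (brown) and 10 low-score (blue) tumours, with a tick at each median. The keratinocyte medians are 1.96 and 1560 TPM and the red blood cell medians 2025 and 455 TPM, and the ranges overlap in every list.

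For 8 pairs of called genes the genes overlapped or lay within 100000 bases of each other, and both members changed in the same direction in all 8. Of the 104 calls, 66 were higher and 38 lower. How often other pairs of called genes agree was not counted, and overlapping pairs may share reads, so this is a description. Sqstm1 and Mgat4b lie 62 bases apart on chromosome 11, with Sqstm1 at chr11:50199366-50210827 (GRCm38). Atp6v0a1 and Naglu lie 6292 bases apart on the same chromosome, and Clec2d and 2310001H17Rik 21877 bases apart on chromosome 6. The library kit keeps the strand, but the strand setting of the counting is not stated. Values are therefore uncertain for Tcf7 with A630014C17Rik, Trpm1 with Gm44719 and Rab20 with E230013L22Rik, which overlap. The same holds for named genes that overlap genes not called. Among them are Slc24a5 (Myef2), Sqstm1 (Mrnip), Glb1 (Tmppe), Ncoa3 (Sulf2), Rsph10b (Pms2) and the score gene Pmel (Cdk2 and Dgka). Of the 104 called genes, 2 rested for over 50% of their group's summed TPM on 1 tumour. Amy1, an amylase gene called lower with the score, took 99.5% from Ecad female 3 (5037 TPM), and Lyz1, a lysozyme gene with a near-identical copy, took 69.9% from ΔEcad female 8.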

How the data were processed

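RNA was extracted from 32 primary melanomas, and stranded mRNA libraries were sequenced. The submitters' processing notes name FastQC (0.11.5), STAR and the builds mm10 and GRCm38.p5. The authors deposited 1 table with the unnormalised counts of 50600 genes and another with their TPM. Gene names came from GENCODE M21 (50376 of the gene identifiers matched), and promoters from RefSeq (GRCm38.p6). TPM set the score (pseudocount 1) and the levels quoted, and counts were tested. Low counts were removed with filterByExpr, counts were scaled by TMM and fitted with edgeR 4.0.16 (robust quasi-likelihood, R 4.3.3) on the 20 tumours without covariates. The SE is the log2 fold change divided by the square root of its F value. Alternatives used DESeq2 1.42.0 and limma 3.58.1 (voom with quality weights), other filters, scores, covariates and left-out tumours. The fit was also run on simulated counts with fixed groups and independent genes, which cannot test groups chosen by a score. Total counts of 24036333 to 63923086 per tumour limit mainly the precision of low genes, and the spread between tumours was large (common dispersion 0.582). The score, the gene lists and the tests were chosen with earlier results of these data known. Genes named were the score genes, Mitf, Cdh1, Grpr, the 15 called genes of either direction that ranked first by p (1 of them is not reported here), and members of the lists with the smallest p (at most 4 a list), and other members of the melanin, melanosome, transcription factor and receptor lists where needed to account for them, among them Dct, Slc45a2 and Sox10. Others (Naglu, Glb1 and those named for their position, their overlap or 1 tumour) were chosen after their values were seen. The labels do not say that tumours came from separate mice, so p-values measure the spread between tumours. The closest pair of libraries correlated at 0.976 over log2 CPM, so that no library was a copy of another.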

Additional observations from a re-analysis of the deposited data

Results flagged for a closer look

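Among 104 sets of 10 tumours (52 named genes outside the score in each score group), 10 values lay far from the rest of their set by Dixon's test, and chance flags about 1 set in 20. ΔEcad male 7 gave 5 of them, each the lowest of the low-score group in log2(TPM + 1): Atp6v0a1 (5.20), Dct (2.58), Slc45a2 (0.39), Mlph (2.05) and Sox10 (0.58). ΔEcad male 1 was the lowest low-score tumour for Commd10 (4.05) and Arrdc3 (2.69). Ecad female 3 was the lowest low-score tumour for Clec2d (4.31), and ΔEcad male 5 the highest for Naglu (8.20). In the high-score group, Ecad female 2 was the lowest for Oca2 (0.0426).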

How the results depend on the processing

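The count of 104 called genes depended on most choices. It was 98 with RLE size factors, 103 with a stricter filter, 103 without robust estimation and 125 without the fold threshold. It was 1159 with DESeq2, 894 with limma voom, 991 with all 32 tumours in the fit, 505 for a slope on the score, 498 with Dct added to the score, 597 for a score on log2 CPM and 215 with fibroblast markers as a covariate. It was 53 without a filter on low counts, 44 for 8 against 8 tumours, 61 with the labelled group and 23 with the keratinocyte markers as a covariate, 7 at an adjusted p under 0.01 and 34 at a log2 fold change over 2. It was 242 without the 3 libraries in doubt. In fits added after seeing the data, it was 10 without the 3 lowest scores and 26 for the 3 highest against the 3 lowest tumours of each labelled group. Leaving out 1 tumour gave 22 to 498 calls, and 17 of 20 tumours moved the count by over 1.5 times. The count fell to 24 without Ecad male 6, 53 without Ecad male 7, 25 without Ecad male 8, 48 without Ecad female 4, 24 without Ecad female 6, 62 without ΔEcad male 4, 39 without ΔEcad male 5, 22 without ΔEcad male 6, 60 without ΔEcad male 7, 30 without ΔEcad female 2, 30 without ΔEcad female 4 and 49 without ΔEcad female 8. It rose to 189 without Ecad female 2, 243 without Ecad female 3, 498 without ΔEcad male 1, 307 without ΔEcad female 3 and 370 without ΔEcad female 6. The cause was not tested. With the replicate number as a block, 0 genes were called by edgeR, 2808 had an unadjusted p under 0.05 and the smallest adjusted p was 0.0710. Same-numbered tumours did not deviate together on average over all tested genes (mean correlation -0.00744, single pairs from -0.519 to 0.471). Of 48 pairs 14 were over 0.1, and 1 of 32 tumours correlated best with its own number. Whether the numbers mark a shared batch was not tested. For the log2 differences of named genes, 688 of 912 values under alternatives and 860 of 1020 with 1 tumour left out kept their direction and their side of the thresholds, and 185 and 142 kept the direction but were no longer called. The direction turned for Mitf (-0.00226 for 8 against 8 and -0.0476 with keratinocyte markers) and for Cdh1 (0.0810 for the slope on the score). The genotype, sex and total count comparisons stayed past no threshold in any alternative.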

Other observations

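Among the Ecad tumours, in which Cdh1 was not deleted by design, Cdh1 was at 2.16, 23.3 and 66.9 TPM (lowest, median and highest) in the 6 high-score tumours and at 102, 151 and 252 TPM in the 3 low-score tumours. The summed keratinocyte markers of these 3 were 25238 TPM in Ecad male 6 and 567.9 TPM in Ecad female 3, while Ecad female 1 held 3.91 TPM. Ecad female 3 also held 10698 TPM of summed secretory epithelium markers, against 169 TPM in Ecad male 6 and 0.46 TPM in Ecad female 1. The Cdh1 difference was seen in the values, not planned, and was not tested, nor was the part of these epithelial cells in it. Among the ΔEcad tumours, Cdh1 was at 0.79, 3.75 and 48.2 TPM in the 4 high-score and at 0.17, 10.2 and 143 TPM in the 7 low-score tumours, with overlapping ranges.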
